A study of Mus musculus with 4 samples.

Results

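Vegfa, Adm, Car9, Egln3 and P4ha2, 5 genes known to be induced by low oxygen, were chosen by name from a deposited table of 1142 genes, and all 5 were found in it. The table covers 4 mammary tumour samples from female MMTV-PyMT mice, which carry the polyoma virus middle T antigen under the mouse mammary tumour virus promoter, 2 with a miR-9 knockout (knockout 1 and 2) and 2 without it (control 1 and 2). All mice were of mixed C57BL/6 descent and the controls were littermates. The allele is labelled an exon 1 knockout of miR-9, with no word on which of the miR-9 loci it affects. The labels call the knockout mice heterozygous when obtained, give no zygosity, age or tumour stage for the sampled mice, and do not say whether a sample came from 1 or several tumours or animals, which leaves the p-values to measure the spread of these samples, possibly technical. The smallest ratio of group means in the table was 1.9996, so the study had already picked its genes for difference on these same samples. A call on a listed gene therefore adds little, and its direction and p-value are not independent evidence. The miR-9 genes themselves were not in the table and were not analysed here, so the knockout could not be checked in these files.

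The 5 genes belong to the response that hypoxia-inducible factor (HIF) drives. With oxygen present, prolyl hydroxylases of the Egln family modify the HIF alpha subunit, which is then degraded. When oxygen is short the subunit accumulates, joins its partner Arnt and binds DNA at a short core, written ACGTG or GCGTG, near its target genes. Solid tumours, mammary ones included, are known for areas far from vessels in which this response is on. Its targets serve the growth and tone of vessels (Vegfa, Adm), the control of acidity (Car9), feedback on HIF itself (Egln3) and collagen processing (P4ha2). miR-9 is a microRNA, and such RNAs lower the output of messengers whose 3′ UTR matches their seed.

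The 5p mature strand of miR-9 and its matches in the 5 genes are given because miR-9 is what the knockout targets. The 3p strand, which each locus also encodes, was not searched for. The RefSeq sequence (GRCm38.p6) is the same from the loci on chromosomes 3, 7 and 13, and capitals mark the seed, bases 2 to 8:
mmu-miR-9-5p: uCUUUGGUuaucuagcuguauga

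Taking for each gene its longest protein-coding 3′ UTR (GENCODE M21), 2 of the 5 genes held a 7-base match to the 5p seed, ACCAAAG (pairing with bases 2 to 8) or CCAAAGA (the same without its first base, followed by A). Such a match was found in 270 of the 1039 listed genes with a 3′ UTR (26.0%) and in 20.2% of 21045 genes overall. Egln3 held 1 match in a 3′ UTR of 1643 bases and P4ha2 held 1 in a 3′ UTR of 402 bases. No match to the 5p seed was found in Vegfa, Adm or Car9, whose 3′ UTRs spanned 1865, 652 and 619 bases. The matches are in capitals, and a match is a description of letters, not a site shown to be bound:
Egln3: agtgtcaagatCCAAAGAatccatacaat
P4ha2: gtctcagtgaaACCAAAGttctgatgctg

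Promoter windows of 300 bases, 250 before and 50 after each RefSeq transcript start, were read for the 5 genes, 6 windows in all since Vegfa has 2 starts. The cores ACGTG and GCGTG were searched on both strands. At least 1 core stood in 5 of the 6 windows, against 43.8% of all 32851 mouse windows of that length and 50.5% of 1041 windows of listed genes. The share was 56.6% in windows of listed genes lower in knockout. In 28 windows of other listed genes tied to the hypoxia response it was 75%. ACGTG alone stood in 4 of the 6, against 19.6% of all windows, 23.6% for the lower genes and 46.4% for the other hypoxia-linked genes. With 6 windows, a difference from these shares was not tested. P4ha2 held 4 cores, 107, 78 and 69 bases before the start and 10 bases after it. Car9 held 1, 18 bases before the start, on the strand opposite the gene. Adm held 2, 90 and 54 bases before its start, and Egln3 held 1, 229 bases before. The upstream start of Vegfa had none in its window and the inner start had 2, at 218 and 211 bases. The inner window of Vegfa (46025114 to 46025413) lies wholly within the span of the gene, so its cores may be part of the transcribed sequence. The P4ha2 window also lies wholly within its gene's span (54100095 to 54131665), so the same holds for its 4 cores. The Car9 gene is annotated from 43506966, a base inside its window, and the Car9 core lies after that base. It may be transcribed too. These windows of Vegfa, P4ha2 and Car9 are counted among the 5 with a core and the 4 with ACGTG. Distal elements lie outside these windows, and a core there was not looked for. The windows of P4ha2 and Car9 are printed because these 2 genes differed most between the groups. The cores are in capitals, and the letters run 5′ to 3′ on the plus strand, which is the gene's strand in both (GRCm38.p6, chr11:54100674-54100973 for P4ha2 and chr4:43506776-43507075 for Car9):
P4ha2: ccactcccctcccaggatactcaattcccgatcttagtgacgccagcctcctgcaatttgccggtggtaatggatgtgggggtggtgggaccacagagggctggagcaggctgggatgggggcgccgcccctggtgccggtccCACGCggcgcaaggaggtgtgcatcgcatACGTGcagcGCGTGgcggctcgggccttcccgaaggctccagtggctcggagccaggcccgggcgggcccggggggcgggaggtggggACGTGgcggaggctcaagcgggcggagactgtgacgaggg
Car9: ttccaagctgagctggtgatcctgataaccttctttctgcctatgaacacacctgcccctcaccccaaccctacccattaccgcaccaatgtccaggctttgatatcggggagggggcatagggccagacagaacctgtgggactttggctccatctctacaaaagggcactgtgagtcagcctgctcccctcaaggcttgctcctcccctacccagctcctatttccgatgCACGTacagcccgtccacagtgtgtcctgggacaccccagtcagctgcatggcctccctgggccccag

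**Figure D1:**
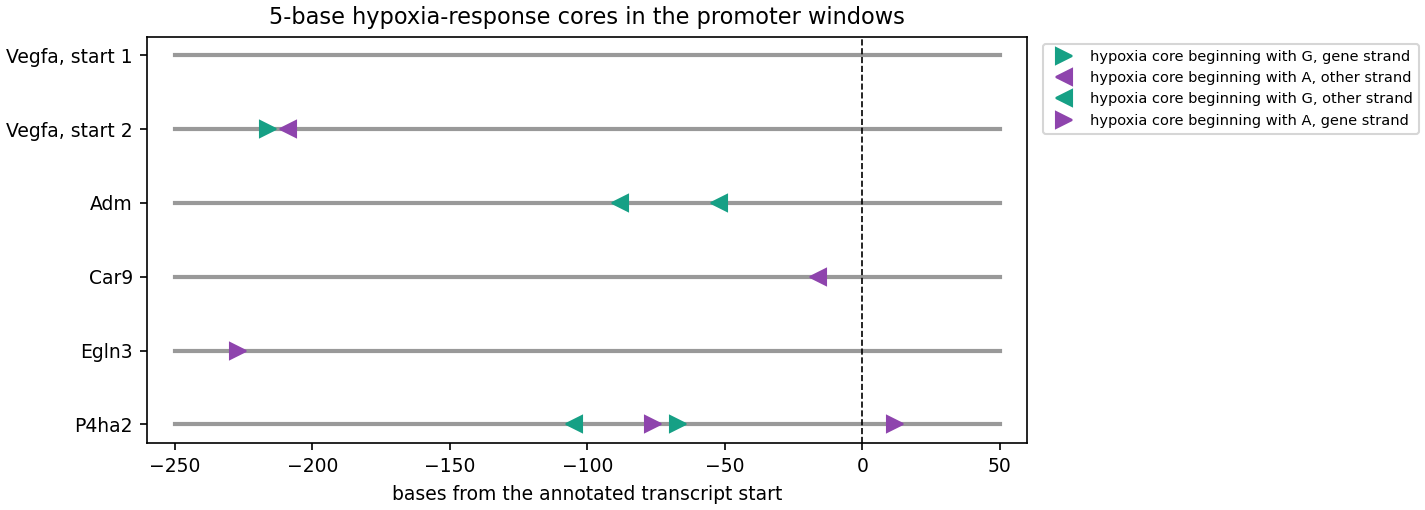
Positions of the cores ACGTG (purple) and GCGTG (green) in the promoter windows of the 5 genes, in bases from the annotated transcript start (dashed line), with arrows for the strand. P4ha2 carries 4 cores and the upstream start of Vegfa carries none.

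All 5 genes fell in the knockout samples, by 2.60-fold to 4.75-fold between group means. In each of them both knockout samples lay below both controls, so the groups did not overlap. Of the 1142 listed genes, 38.6% had both knockouts below both controls. By limma with Benjamini-Hochberg adjustment over all 1142 genes at 0.05, all 5 were called lower, while 38.5% of the table was called lower and 61.3% higher. With nearly every listed gene called in some direction, the count of 5 says little beyond the sign. The median log2 change of the 5 was -1.74, against -1.63 over the 442 lower genes and 1.23 over all listed genes. An exact permutation test over 2 against 2 samples cannot give a p below 0.333, so none is reported for single genes.

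The ligands come first. Vegfa, the secreted growth factor that makes endothelial cells divide and vessels leak, is on chromosome 17 (46016993 to 46032369, minus strand, GRCm38; ENSMUSG00000023951). It had 856 and 799 normalised reads in knockouts 1 and 2, against 3537 and 1839 in controls 1 and 2. The knockouts were almost level, while control 1 was 1.92 times control 2. The log2 change was -1.62 ± 0.38 (SE, n = 2 per group; 95% interval -2.48 to -0.76; limma adjusted p = 0.00709).

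Adm encodes adrenomedullin, a peptide that widens vessels and acts through the receptor Calcrl with a Ramp partner, and lies on chromosome 7 (110627661 to 110629820, plus strand; ENSMUSG00000030790). It had 66.0 and 90.1 normalised reads in the knockouts, against 315 and 216 in the controls. It was the least read of the 5, with 73 and 94 reads behind the knockout values, against 314 and 191 behind the control values. The log2 change was -1.74 ± 0.40 (SE; limma adjusted p = 0.00672). The lower control was still 2.39 times the higher knockout. Adm lies within the span of an antisense gene, Gm28863, but their exons share 0 bases.

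Car9, carbonic anhydrase 9, is a membrane enzyme that turns carbon dioxide into bicarbonate and acid at the cell's outer face, and is widely used as a marker of hypoxic tumour tissue. It lies on chromosome 4 (43506966 to 43513729, plus strand; ENSMUSG00000028463). It had 502 and 413 normalised reads in the knockouts, against 1930.1 and 1541 in the controls. Its controls were the closest of the 5 genes, at a ratio of 1.25, and its knockouts differed by about as much, at 1.22. The log2 change was -1.92 ± 0.32 (SE; limma adjusted p = 0.00281). Of its 2304 exon bases, 214 overlap exons of the antisense gene Gm12454. No source used here says that strand was kept, and reads there could belong to either gene.

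Egln3 (also PHD3), a prolyl hydroxylase that marks HIF alpha for degradation and is itself induced by HIF, lies on chromosome 12 (54178981 to 54203860, minus strand; ENSMUSG00000035105). It had 2432 and 2323 normalised reads in the knockouts, against 8214 and 4130.4 in the controls. It showed the smallest change of the 5 and the widest gap between controls, control 1 being 1.99 times control 2. Control 2 was 1.70 times the higher knockout. The log2 change was -1.29 ± 0.39 (SE; 95% interval -2.18 to -0.40; limma adjusted p = 0.0138).

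P4ha2 encodes a catalytic subunit of collagen prolyl 4-hydroxylase, which works in the endoplasmic reticulum and lets collagen form a stable helix. It lies on chromosome 11 (54100095 to 54131665, plus strand; ENSMUSG00000018906). It had 153 and 179 normalised reads in the knockouts, against 912 and 664 in the controls. The lower control was 3.71 times the higher knockout, the clearest gap of the 5. The log2 change was -2.23 ± 0.34 (SE; 95% interval -2.999 to -1.46; limma adjusted p = 0.00234). Among the 442 lower genes of the table it ranked 146 by size of change, and Egln3 ranked 297, so none of the 5 was near the extreme. The 95% intervals of all 5 overlapped, and differences among them were not tested.

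**Figure D2:**
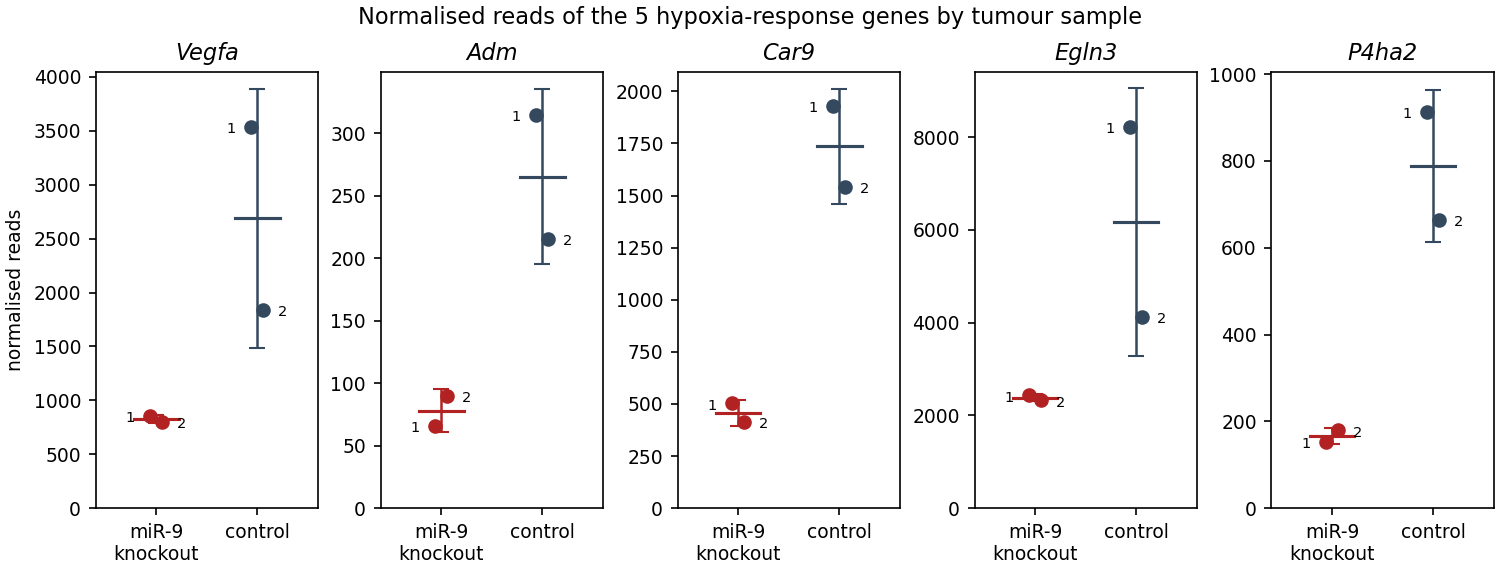
Normalised reads of each gene (vertical axis, linear, from 0; each panel has its own scale) in knockout and control samples. Points are samples, numbered by replicate, the long bars are means and the error bars SD (n = 2 per group). On this scale the controls lie farther apart than the knockouts, most for Vegfa and Egln3, with no overlap in any panel. As ratios the gaps in Car9 were about even, at 1.22 in the knockouts and 1.25 in the controls.

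Set per kilobase of the deposited gene length, the 5 genes kept nearly the same order of level in both groups. Egln3 was highest, at 913 and 873 normalised reads per kilobase in the knockouts, against 3086 and 1552 in the controls. Car9 followed at 218 and 179 in the knockouts, against 838 and 669 in the controls, and Vegfa at 199.7 and 186 in the knockouts, against 825 and 429 in the controls. The ranges of Car9 and Vegfa overlapped in both groups, so these 2 had no order. Adm stood at 40.7 and 55.7 per kilobase in the knockouts, against 194 and 133 in the controls. P4ha2 was lowest, at 24.5 and 28.7 per kilobase in the knockouts, against 146 and 106 in the controls. Adm and P4ha2 were apart in the knockouts, while their ranges overlapped in the controls.

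Around these 5, genes of the response or tied to it by role were read from 9 lists, 179 genes in all. They are called genes of the response below. Some lists hold receptors, carbonic anhydrases or collagens by family, so a gene on them need not be induced by low oxygen. Of the 174 that are not among the 5, 27 were in the table, and all 27 were called, 20 lower and 7 higher, against 38.5% and 61.3% of the table. The 147 genes outside the table were not analysed here. The median log2 change of the 27 was -1.10. As with the 5, the study's selection of the table fixes that every listed gene differs.

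Ligands that act on vessels changed in both directions. Of 17 ligands, 6 were listed, 5 lower and 1 higher. Besides Vegfa and Adm, Apln and Edn1, which encodes the vessel-narrowing peptide endothelin 1, were among those that fell. Apln, whose product apelin acts on endothelial cells, had 142 and 180.2 normalised reads in the knockouts, against 836 and 473 in the controls (log2 change -1.97, limma adjusted p = 0.00434). Angpt1, a ligand of the receptor Tek that steadies vessels, was the exception and rose to 419 and 395 in the knockouts, against 146 and 138 in the controls (log2 change 1.51, limma adjusted p = 0.00615). With TMM factors from the listed genes its log2 change was 0.77 and the call was lost (edgeR adjusted p = 0.0617). Factors taken from a table picked for difference, most of it higher, shift log2 changes downward. The median of the table went from 1.23 to 0.48 with TMM factors. A higher call lost with such factors, here or below, therefore says little about the gene itself. Of its 5205 exon bases, 737 overlap exons of the antisense gene Gm17473.

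Of 17 receptors for these ligands, the table held the neuropilins, co-receptors of Vegfa, which moved in opposite directions. Nrp2 had 82.2 and 104.5 normalised reads in the knockouts, against 399.9 and 227 in the controls (log2 change -1.69, limma adjusted p = 0.008). Nrp1 had 252 and 318 in the knockouts, against 105 and 136 in the controls (log2 change 1.24, limma adjusted p = 0.0128). The rise of Nrp1 was lost with TMM factors from the listed genes (log2 change 0.51, edgeR adjusted p = 0.15), whereas the fall of Nrp2 was kept. Both outcomes follow the downward shift that these factors give. The main receptors Kdr and Flt1, and Calcrl and its Ramp partners, were not in the table and were not analysed here.

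Of 14 genes for carbonic anhydrases and acid transport, Car9 included, 5 were in the table, 4 lower and 1 higher. The lactate transporters Slc16a3 and Slc16a1, which carry lactate together with acid across the cell membrane, both fell. Slc16a3 had 73.2 and 69.0 normalised reads in the knockouts, against 419.9 and 193 in the controls (log2 change -1.99, limma adjusted p = 0.00668). Slc16a1 had 543 and 449.6 in the knockouts, against 1723 and 1663 in the controls (log2 change -1.77, limma adjusted p = 0.00312), the most even controls of the 25 lower genes of the response. Among relatives of Car9, Car2, a carbonic anhydrase of the cytoplasm, had 1198 and 1055 in the knockouts, against 3506 and 1658 in the controls (log2 change -1.10, limma adjusted p = 0.0247). Car8, a relative without the enzyme's activity, rose to 366 and 378 in the knockouts, against 39.1 and 136 in the controls (log2 change 2.33, limma adjusted p = 0.00758). That call was lost with TMM factors from the listed genes (log2 change 1.41, edgeR adjusted p = 0.0564). The controls of Car8 lay far apart, and its log2 change was 1.45 without control 1 and 3.22 without control 2.

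All 4 listed genes of the 18 for collagen hydroxylation and crosslinking fell: P4ha2, its paralog P4ha1, the lysyl hydroxylase Plod2 and the lysyl oxidase relative Loxl4. P4ha1 had 406 and 453 normalised reads in the knockouts, against 1196 and 616 in the controls (log2 change -0.999, limma adjusted p = 0.0304). Its change was under that of P4ha2 (-2.23), and the difference was not tested. Plod2 had 608 and 500.5 in the knockouts, against 2203 and 1408 in the controls (log2 change -1.67, limma adjusted p = 0.00523), and 346 of its 5392 exon bases overlap exons of Gm38391 on the other strand. Of 18 collagens only Col4a6, a basement membrane chain, was listed, and it rose (log2 change 1.44), a call lost with TMM, RLE and upper-quartile factors from the listed genes. Its log2 change was 0.80 without control 1 and 2.08 without control 2, and that of Loxl4 was -0.85 without control 1 and -2.34 without control 2.

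Of HIF subunits and their cofactors only Arnt2, a partner of HIF alpha, was in the table. It had 191 and 151 normalised reads in the knockouts, against 379.8 and 309.6 in the controls (log2 change -1.01, limma adjusted p = 0.0199), and 214 of its 7689 exon bases overlap exons of the antisense gene Gm30873. Hif1a, Epas1, Arnt, Vhl, Egln1 and Egln2 were not in the table and were not analysed here, and of 13 genes for oxygen sensing and HIF turnover 1, Egln3, was listed. The 4 listed glycolysis genes of 26, Pfkfb3, Pdk3, Pfkfb4 and Pgk1, fell by between 0.98 and 1.25 on the log2 scale.

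Of 48 other genes known to respond to low oxygen, 8 were listed, 5 lower and 3 higher. Ak4, a mitochondrial adenylate kinase, had 202 and 169 normalised reads in the knockouts, against 990.1 and 549 in the controls (log2 change -1.99, limma adjusted p = 0.00409). Inha, the alpha chain of inhibin, had 18.1 and 31.6 in the knockouts, against 126 and 68.9 in the controls (log2 change -1.92, limma adjusted p = 0.011). Tfrc, the transferrin receptor, Maff and Ero1l also fell. Stc2, which encodes the secreted glycoprotein stanniocalcin 2, rose to 1979 and 2875 in the knockouts, against 109 and 198 in the controls (log2 change 4.01, limma adjusted p = 0.00101), the largest change among the 32 genes. Zfp395 and Ppfia4 also rose, at log2 changes of 1.26 and 1.16, and both calls were lost with TMM, RLE and upper-quartile factors from the listed genes.

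**Figure D3:**
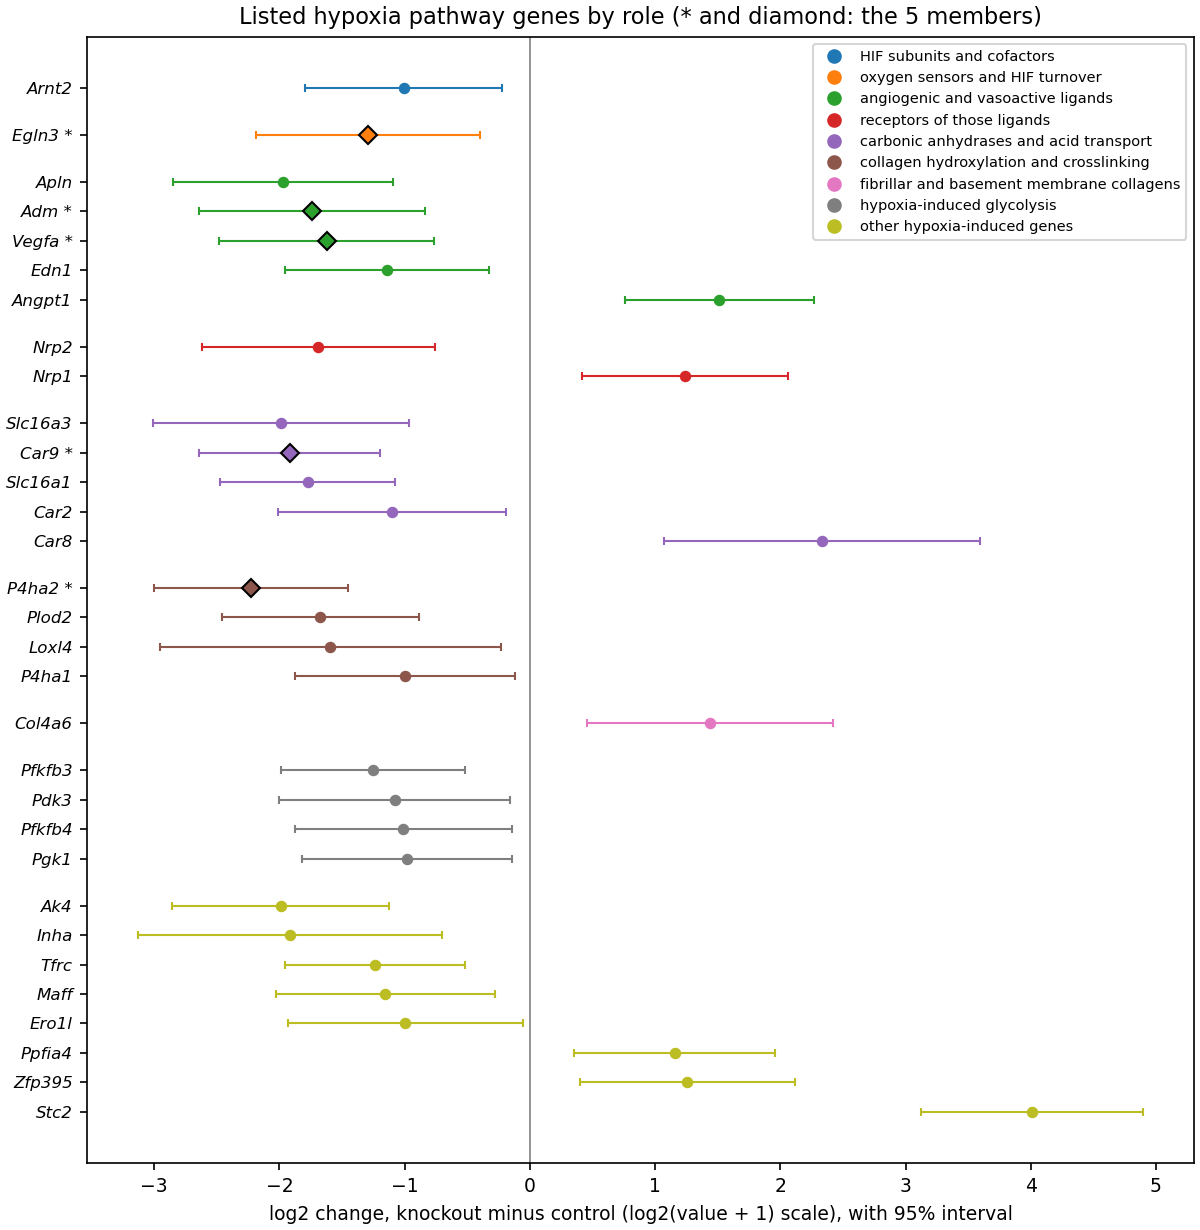
Log2 change, knockout minus control (horizontal axis, log2(value + 1) scale), of 31 listed genes of the hypoxia response or tied to it by role, grouped and coloured by role, with 95% intervals from limma. Diamonds mark Vegfa, Adm, Car9, Egln3 and P4ha2. Changes lie left of 0 for 24 genes and right of 0 for 7, from -2.23 in P4ha2 to 4.01 in Stc2.

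The controls differed in a uniform way. In all 5 genes control 1 was higher than control 2, by 1.25-fold to 1.99-fold, and the same held in all 20 of the other lower genes, with a median ratio of 1.76. Over all 442 lower genes of the table control 1 was the higher in 297 (67.2%). In 6 of the 7 higher genes control 2 was above control 1, Angpt1 being the exception. Control 2 therefore lay between control 1 and the knockouts in 31 of the 32 genes. The share over all higher genes of the table was not counted. Summed cell type markers that were higher in the knockouts, given below, also had control 2 nearer the knockouts. The pattern in the higher genes is thus not shown to be particular to the response. The knockouts had no such offset, with a median ratio of knockout 1 to knockout 2 of 1.05 over the 25 lower genes.

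**Figure D4:**
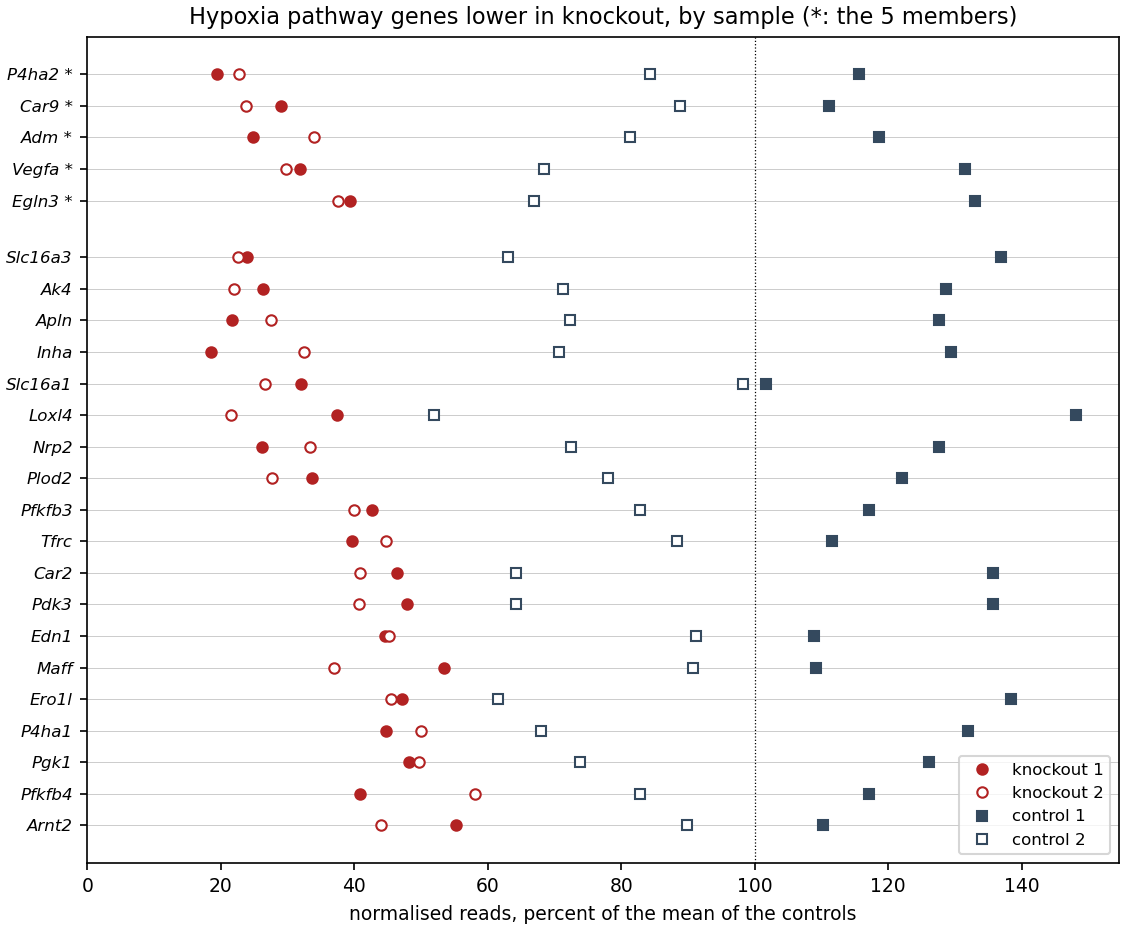
Normalised reads of 24 of the 25 lower genes in each sample, as a percent of the mean of the controls (dotted line). The knockouts (circles) lie left of both controls (squares) in every gene shown, and control 2 (open square) lies left of control 1 (filled square) in every gene shown.

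Markers of cell types were read from the same table, in which 61.3% of genes were called higher and 38.5% lower, so a count of markers that were higher says little. With RLE factors from the listed genes 142 genes of the table were called higher, against 700 as reported. The summed normalised reads of 5 listed luminal epithelial genes of 13 were 19549 and 23059 in the knockouts, against 4666 and 8005 in the controls. Krt19 made up most of each sum, at 13167 and 14459 in the knockouts, against 3459 and 6051 in the controls. For 7 macrophage genes of 12 the sums were 36305 and 43528 in the knockouts, against 9819 and 16886 in the controls. Most of each was Apoe, at 28373 and 33805 in the knockouts, against 6562 and 11799 in the controls. For 7 basal and myoepithelial genes of 10, 6 higher and 1 lower in the knockouts, the sums were 29109 and 28041 in the knockouts, against 6686 and 9170.2 in the controls. The 4 listed fibroblast genes of 12, 3 higher and 1 lower, summed to 21076 and 27179 in the knockouts, against 10519.5 and 12847.5 in the controls. Sparc alone had 14711 and 18642 in the knockouts, against 5246 and 7102 in the controls. The 4 adipocyte genes of 11 summed to 933 and 2290.4 in the knockouts, against 409.9 and 569 in the controls. The pericyte gene listed of 8, Cspg4, had 227 and 275 in the knockouts, against 101 and 121 in the controls. The 8 skeletal muscle genes of 14 summed to 73.2 and 44.1 in the knockouts, against 603 and 1031 in the controls, with Myh1 at 0 in knockout 1 and Pvalb at 0 in knockout 2. In each of these 7 lists the summed value of control 2 was above that of control 1, which for the muscle genes is the side away from the knockouts and for the others the side towards them. Single genes could differ from their list: in Krt14, Fn1 and Acta1 control 1 was the higher. Acta1, at 431 and 384 in controls 1 and 2, made up most of the muscle sum in control 1. None of 14 endothelial markers was in the table. In such bulk samples fewer cells of a type and less RNA per cell cannot be told apart, and the part of cell makeup in the changes of the 5 genes was not tested. Of mammary epithelium, the luminal genes Krt19, Foxa1, Prlr, Esr1 and Spdef were present, and Krt8, Krt18 and Epcam were not in the table.

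A fit that leaves out a sample takes its spread from the group that still has 2, and assumes that the lone sample varies like them. The knockouts lay closer together than the controls, so calls made without a control rest on the smaller spread and do not show that a change holds against the spread of the controls. Without control 1 all 5 genes were called lower by limma under that assumption, at adjusted p up to 0.0314, while 32.0% of the table was called lower. The log2 change of Egln3 was then -0.80 and that of Vegfa -1.15, against -1.999 for P4ha2 and -1.76 for Car9. Of the 20 other lower genes 13 were called without control 1. The calls lost were those of P4ha1 (log2 change -0.52), Loxl4 (-0.85), Pfkfb4 (-0.76), Pdk3 (-0.54), Ero1l (-0.41), Maff (-1.02) and Inha (-1.49). Without control 2 all 5 genes and all 20 others were called lower, in a table with 35.5% called lower. Without knockout 1 none of the 5 was called by limma, nor was any other gene called lower (0% of the table), and the same held without knockout 2 (0%). In both of those fits 3 of the 5 had an unadjusted p under 0.05, and the 5 log2 changes lay between -2.34 and -1.26. Count models were not run with a sample left out. With scaling factors computed from the listed genes in place of the deposited ones, the 5 genes stayed lower and their median log2 change was -2.54 with TMM, -2.92 with RLE and -2.21 with upper-quartile factors. Those factors shift log2 changes downward, so lower genes could only stay lower.

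**Figure D5:**
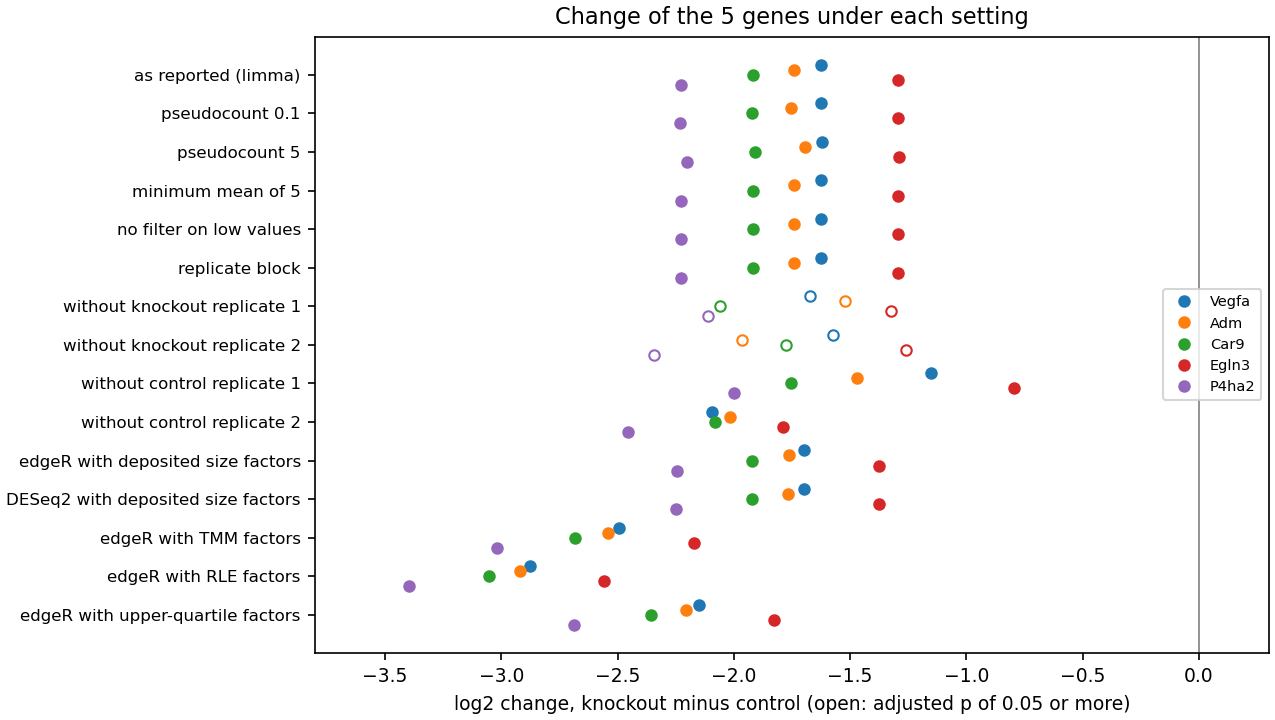
Log2 change of the 5 genes, knockout minus control (horizontal axis), under the reported limma fit and each alternative setting. Open circles mark an adjusted p of 0.05 or more. Every value is below 0, from -3.40 for P4ha2 with RLE factors to -0.80 for Egln3 without control 1, and the open circles are those of the fits that leave out a knockout.

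In all 5 genes control 1 was highest, control 2 next and the knockouts lowest. Whether their profiles over the 4 samples differ beyond noise was not tested. After centring each log2 profile on its own mean, Vegfa and Egln3 were the closest pair, with a root mean square difference of 0.17, and Egln3 and P4ha2 the farthest, with 0.51. Every one of the 5 had closer neighbours elsewhere in the table. Among the 3 nearest to Vegfa were Akap12 and Celf5, at differences of 0.050 and 0.083. The 3 nearest to Adm were Nat8, the co-receptor Nrp2 and Slc4a11, at 0.088 to 0.13. For Car9 they were Kbtbd13, Vamp1 and Scube3, at 0.032 to 0.089, for Egln3 Psrc1, Exoc3l4 and Serpine2, at 0.052 to 0.064, and for P4ha2 Ttyh1, Krt9 and Cd27, at 0.092 to 0.16. With 4 samples and 442 lower genes in the table, such likeness describes these libraries only. As an example of scale, Akap12 had 570.2 and 497 normalised reads in the knockouts, against 2169 and 1127 in the controls.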

How the data were processed

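The deposited RNA-seq values cover 4 tumour samples, 2 with the miR-9 knockout and 2 without. The authors' deposited signal values (normalised reads) are read counts scaled by a size factor: 100% of the 1142 values of a sample are whole multiples of what 1 read is worth there, to within 1e-06 reads. Relative depth was 1.11 and 1.04 in the knockouts and 0.998 and 0.885 in the controls. Per the submitters' processing notes, Bowtie 0.12.2 was used; how reads were counted, with which strand setting, and how genes were listed is not given in the sources used here. Coordinates of 1096 genes, the 5 included, are identical in GENCODE M21 (GRCm38). Replicates differed by more than sampling noise (chi-square per degree of freedom 13.3 for knockouts and 53.7 for controls).

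The trend fit of limma 3.58.1 (R 4.3.3) was applied to log2(value + 1) of genes with a mean of at least 0.5, with genotype alone in the model (2 residual degrees of freedom). P-values were adjusted by Benjamini-Hochberg over the 1142 genes and called at 0.05. Log2 changes understate those of low genes. Alternatives included edgeR 4.0.16 and DESeq2 1.42.0 on recovered reads. Promoters and miR-9 came from RefSeq, with promoter windows matched by symbol for 812 listed genes. Figures used Python 3.11.15.

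The genes and lists were chosen with earlier results of these data known. Named were the 5 genes, the 8 largest changes among the lists, receptors, sensors and paralogs of the 5, and for each of the 5 the 3 nearest profiles; 2 genes that this rule names are not reported here. Angpt1, Arnt2, Plod2, Loxl4, Col4a6, Zfp395, Ppfia4, Maff, Ero1l, the glycolysis genes and the marker genes were given values outside that rule, after they were seen.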

Additional observations from a re-analysis of the deposited data

How the results depend on the processing

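Each of the 5 genes kept its sign under all 14 alternatives, and so did the 27 other listed genes of the response: of 448 such values none turned. Most could not have turned. In each gene the groups did not overlap, so leaving out a sample or changing the pseudocount cannot reverse the sign. The filter settings and the replicate block gave the reported log2 changes again. With a sample left out, the 5 genes gave 0 to 5 calls, the other response genes 0 to 27 (0 to 20 lower and 0 to 7 higher), and all listed genes 13 to 1070 calls (0 to 405 lower and 13 to 665 higher). The calls that went to 0 were in the fits without a knockout sample, whose spread comes from the controls alone; fits without a control take theirs from the knockouts alone, which lay closer together. With TMM factors from the listed genes 690 genes were called, 248 of them higher, with RLE factors 584 and 142, and with upper-quartile factors 466 were called higher, against 1140 and 700 as reported. Of the 7 higher response genes 1 was called with TMM, 1 with RLE and 4 with upper-quartile factors, while all 20 lower ones were called each time. These factors come from a table picked for difference and shift log2 changes downward, as the medians below show. Higher calls lost and lower calls kept follow from that shift and are no test of single genes. Higher genes made up this share of the calls: 61.4% as reported, 35.9% with TMM, 24.3% with RLE and 51.3% with upper-quartile factors. Over the whole table the median log2 change was 1.23 as reported, 0.48 with TMM, 0.13 with RLE and 0.79 with upper-quartile factors, so directions hold relative to the size factors the authors used. The median of the 5 genes was -1.74 as reported and -2.54, -2.92 and -2.21 with those factors. Samples share only a replicate number: deviations from the group means correlated at 0.043 between same-numbered samples. With a replicate block 5 of the 5 genes, 27 of the 27 others and 1142 listed genes were called. A minimum mean of 5 and no filter removed no gene. Of the 5, Adm rests on the fewest reads, 73 to 314 per sample.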
